A study of Mus musculus with 4 samples.

Results

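The small Maf, NRF and BACH factor genes are Mafg, Maff, Mafk, Nfe2l1, Nfe2l2, Bach1 and Bach2, which encode transcription factors, and Keap1, a regulator of one of them. These 8 genes were examined here among 21883 protein-coding genes in an ATAC-seq comparison of mouse pachytene spermatocytes. Members were taken by symbol from the RefSeq gene table of mm10. The family was chosen by a measured value, the wide interval at Mafg that is in the knockout peak list and not in the control list, so the Mafg contrast is given as a description and supports nothing. An interval belongs to a gene here when it lies inside the gene or within 10 kb of either end, and all 8 genes had at least 1. ATAC-seq marks open chromatin by where the Tn5 transposase can cut. The labels name 4 libraries from testis, 2 with the genotype Znhit1_KO and 2 with the genotype CTRL, all tagged P35. Znhit1 encodes a subunit of the SRCAP complex, which places the histone variant H2A.Z in chromatin. The sources used here do not state the allele, the driver of any deletion, the strain or what the controls carry. They call the libraries of a genotype independent biological replicates, and only the first of each has a list here.

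Small Maf proteins (MAFF, MAFG, MAFK) are basic leucine zipper proteins with no activation domain of their own, and they act by pairing with a cap'n'collar partner. The partners differ in effect. NRF1 (from Nfe2l1) and NRF2 (from Nfe2l2) activate genes of antioxidant defence, metabolism and, for NRF1, the proteasome, while BACH1 and BACH2 mostly repress. The pairs bind antioxidant response elements and longer Maf recognition elements, and KEAP1 holds NRF2 for degradation until oxidants or electrophiles modify it. NRF1 of this family is a different protein from nuclear respiratory factor 1.

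The sequences below are shown because they lie just before starts at which the 2 peak lists differ or agree. Each is the 250 bases before a RefSeq start (RefSeq, GRCm38.p6, the assembly of mm10), read 5' to 3' on the strand of the gene. Capitals mark matches on either strand to the antioxidant response element core TGACNNNGC, the E-box CACGTG and the cAMP response element core TGACGTC. The last 2 motifs were chosen after these sequences had been read. The Mafg stretch is chr11:120633548-120633797 (minus strand), and all of it lay in the knockout interval and none in a control interval. The Maff stretch is chr15:79347270-79347519 (plus strand), before the second of 3 starts, and it was also met in the knockout list alone. The Mafk stretch, chr5:139791286-139791535 (plus strand), and the Bach1 stretch, chr16:87698704-87698953 (plus strand), were met in both lists. The Nfe2l2 stretch, chr2:75704664-75704913 (minus strand), was met in neither.
Mafg: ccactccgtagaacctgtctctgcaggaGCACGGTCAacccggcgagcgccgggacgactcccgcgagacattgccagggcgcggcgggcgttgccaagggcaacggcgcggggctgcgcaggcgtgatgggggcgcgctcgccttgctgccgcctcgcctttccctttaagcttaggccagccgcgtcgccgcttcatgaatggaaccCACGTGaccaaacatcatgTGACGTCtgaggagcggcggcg
Maff: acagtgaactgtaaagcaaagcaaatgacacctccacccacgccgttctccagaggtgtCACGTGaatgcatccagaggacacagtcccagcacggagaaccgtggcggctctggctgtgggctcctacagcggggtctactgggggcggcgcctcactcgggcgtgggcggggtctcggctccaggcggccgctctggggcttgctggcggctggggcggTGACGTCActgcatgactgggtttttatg
Mafk: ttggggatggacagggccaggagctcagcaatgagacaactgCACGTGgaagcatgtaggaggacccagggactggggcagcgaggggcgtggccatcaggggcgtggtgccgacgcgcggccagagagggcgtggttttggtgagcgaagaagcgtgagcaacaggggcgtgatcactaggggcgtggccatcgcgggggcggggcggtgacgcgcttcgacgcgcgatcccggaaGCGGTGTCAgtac
Bach1: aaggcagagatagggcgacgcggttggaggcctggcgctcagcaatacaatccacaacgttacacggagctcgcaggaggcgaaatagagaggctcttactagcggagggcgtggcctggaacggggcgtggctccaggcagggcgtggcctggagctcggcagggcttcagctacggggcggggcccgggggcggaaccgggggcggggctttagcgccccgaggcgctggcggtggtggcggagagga
Nfe2l2: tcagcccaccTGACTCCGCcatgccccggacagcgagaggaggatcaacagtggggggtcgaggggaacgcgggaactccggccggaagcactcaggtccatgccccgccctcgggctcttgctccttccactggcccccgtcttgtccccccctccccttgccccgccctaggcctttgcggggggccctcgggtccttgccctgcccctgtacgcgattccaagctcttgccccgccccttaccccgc

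The data are 2 peak lists, 1 per genotype, with the position of each interval and no height or score. The knockout list held 21004 different intervals and the control list 15376. A single list for each genotype allows no test, so no p-value is given, and a list made from more reads cannot be told apart from a genotype with more open sites. Intervals can stand on several lines, and the number of lines is given as times listed. As a check of the labelled cells, 8 of 11 pachytene markers (Sycp1, Sycp3, Mybl1 and others) had an interval within 1 kb of a gene end in both lists and 2 (Pgk2 and Spag6) in the knockout list alone, and both lists met the promoter window of the other one, Ccna1. Of all protein-coding genes, 28.6% had such an interval in both lists and 57.0% in neither. None of 6 Sertoli, 5 Leydig or 6 macrophage and endothelial markers did. None had a promoter window met either, though 3, 2 and 4 of them had no such window. In the 10 kb windows, Sox9, Ptprc, Pecam1 and Cdh5 had intervals in the knockout list alone. Cyp17a1 and Cyp11a1 had one there in the control list alone and Amh in both lists. Of all coding genes, 13.9% had only knockout intervals in that window, 5.85% only control intervals and 46.1% both. Of 6 spermatogonial markers Etv5 had an interval within 1 kb of a gene end in both lists and Id4 in the control list. Of 2 peritubular markers Acta2 had one in the knockout list, and Myh11 had only knockout intervals in its 10 kb window.

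In 6 of the 8 genes both genotypes had an interval at a gene end, that is, within 1 kb of either end of the gene. These were Mafk, Nfe2l1, Nfe2l2, Keap1, Bach1 and Bach2, and at each of them the knockout and control intervals overlapped. The other 2, Mafg and Maff, had one in the knockout list alone, and no gene had one in the control list alone. Over all protein-coding genes, 28.6% had a gene-end interval in both lists, 9.81% in only the knockout list, 4.66% in only the control list and 57.0% in neither. Without Mafg, which led to the choice of the family, 6 of 7 genes were in both lists and 1, Maff, in the knockout alone. The counts for the 10 kb windows were the same, 6 in both and 2 in the knockout alone. Of all coding genes, 46.1% had an interval of both lists in that window, 13.9% had only knockout intervals and 5.85% only control intervals. With each list restricted to intervals listed at least 2 times, Nfe2l1 and Bach1 (2 genes) had a gene-end interval in both. Mafg, Mafk and Nfe2l2 (3 genes) then had only a knockout one, Bach2 (1 gene) only a control one, and Maff and Keap1 none. The shares over all coding genes were not computed under this limit.

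**Figure D1:**
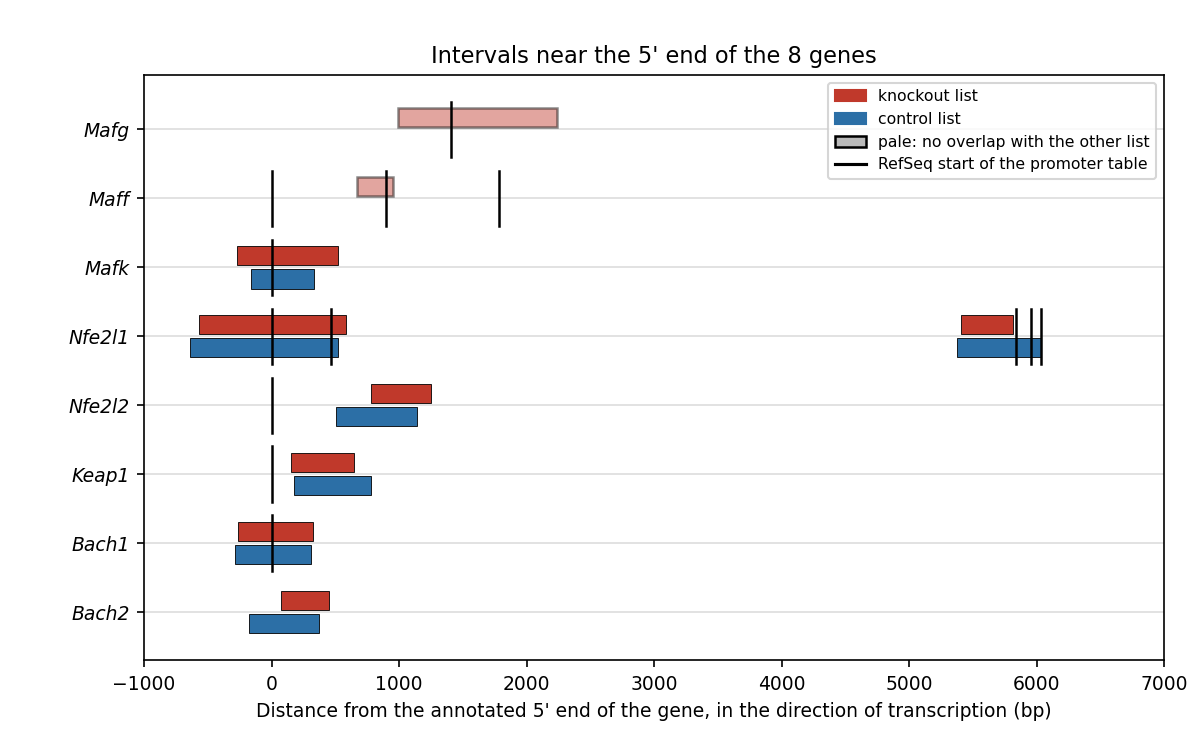
Position of the intervals of each gene along the x axis, in bp from the annotated 5' end in the direction of transcription; intervals deeper in Nfe2l2 and Bach2 and those beyond Mafg and Keap1 lie outside the plot. Red bars are knockout and blue bars control intervals, pale bars overlap nothing in the other list, and black lines are RefSeq starts; Mafg (1252 bp) and Maff (287 bp) have a red bar and no blue one, and the other genes have both.

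Together the 8 windows held 14 knockout and 11 control intervals. Of the knockout intervals 8 (57.1%, exact Clopper-Pearson 95% interval 28.9 to 82.3, counting error only) overlapped a control interval, and of the control intervals 8 (72.7%, 39.0 to 94.0) overlapped a knockout interval. For all intervals in the 10 kb window of any coding gene these shares were 39.2% and 51.6%, which both lie inside the members' 95% intervals. That is no test, since intervals of the same gene are not independent and Bach2 had 4 in each list. The members' knockout intervals include 2 of Mafg, neither of them shared. Mafg led to the choice of the family, so the members' knockout share is a description only. With intervals listed at least 2 times the members' shares were 33.3% of 6 knockout and 40.0% of 5 control intervals. Both Mafg intervals are among these 6. The shares over all coding genes were not computed under that limit, so these values have no background. All 6 control intervals at a gene end were shared, and 6 of the 8 knockout ones. Over all coding genes 68.6% of knockout and 80.6% of control gene-end intervals were shared. Most of the intervals touched the body of the family gene itself, 13 of 14 in the knockout and 10 of 11 in the control. The matching share over all coding genes was not computed, so this count has no background.

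Mafg, a small Maf gene, lies at chromosome 11, 120625117 to 120634955, and is read from the minus strand. Its knockout interval ran from 120632715 to 120633966, was 1252 bp wide and was listed 3 times. It spanned the RefSeq start at 120633547, from position -419 to position 832 relative to it. The interval also covered the start of Gm17586, a long non-coding RNA gene read in the opposite direction from 120633750, so it cannot be assigned to 1 of the 2 starts. The control list had nothing in the 10 kb window of Mafg. The control interval nearest to the one at the Mafg start, 231 bp wide, was 26.6 kb away from it. The knockout list had 1 more interval in the window, 556 bp wide and listed 2 times (120617579 to 120618134), 6983 bp beyond the gene and overlapping the neighbouring gene Pcyt2, a phospholipid synthesis enzyme gene. It too had no control counterpart. The start of Sirt7, a deacetylase gene that begins 103 bp beyond the 3' end of Mafg, had no interval in either list.

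The Mafg interval had rank 9 of 2124 by width among genes with an unshared knockout interval at a gene end and no control interval there. The family was chosen for this wide interval, so a high rank follows from the choice and is a description only. These widths had a median of 421 bp and a 95th percentile of 892.8 bp. In width, over these 2 lists, the most similar genes were Fbxl5 (1260 bp) and Rap1gds1 (1318 bp) above it and Smurf2 (1244 bp) and Itpk1 (1235 bp) below it. Maff, at rank 1660 with 287 bp, was a little below the lower quartile of 303 bp in the same set. Mafg counted as a gene-end interval by a small margin, since its edge was 989 bp from the annotated gene end, which lies upstream of the start in the promoter table. With gene ends of 500 bp neither Mafg nor Maff counted, and the number in the knockout alone was 0. The RefSeq start itself was covered under either limit, since the interval is the same.

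Maff (chromosome 15, 79346621 to 79359078, plus strand), the small Maf gene known for induction by inflammatory and stress signals, had 1 interval in the knockout list and none in the control list. It ran from 79347291 to 79347577, was 287 bp wide and was listed once. It covered the second of 3 RefSeq starts, at 79347520, while the windows at its other starts held no interval of either genotype. The width was below the knockout list's median of 352 bp, and the nearest control interval was 18.7 kb away. Restricting both lists to intervals of at least 300 bp removed it and left Mafg as the 1 gene in the knockout alone. Mafg and Maff thus shared the presence in 1 list but not the width, 1252 bp against 287 bp.

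Mafk (chromosome 5, 139791536 to 139802653, plus strand) was the small Maf gene with an interval in both lists. The knockout interval was 794 bp wide (139791267 to 139792060, listed 3 times) and the control interval 497 bp (139791373 to 139791869, listed once). The control interval lay wholly inside the knockout one, which was 1.6 times as wide, the largest excess in the knockout among the 8 overlapping pairs of the family. Both covered the start. These widths come from 1 list each and carry no error.

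Nfe2l1, which encodes the endoplasmic reticulum-anchored activator NRF1, had 2 intervals in each list and both were shared. The gene lies at chromosome 11, 96817414 to 96829968, minus strand. At its 5' end the knockout interval was 1152 bp wide (96829387 to 96830538, listed 2 times) and the control interval 1166 bp (96829446 to 96830611, listed 3 times), and the overlap made up 89.2% of their union. This pair covered the first 2 of the 5 RefSeq starts and its intervals were the widest of the family after that of Mafg. The second site lies inside the gene at the other 3 starts. There the knockout interval was 410 bp wide (96824150 to 96824559) and ended before all 3, whereas the control interval was 663 bp wide (96823931 to 96824593) and reached each of them. The control interval was 1.62 times as wide, the largest excess in the control among the 8 pairs.

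Nfe2l2, which encodes NRF2, the main activator of the antioxidant response, had a shared site inside the gene rather than over its start. The gene lies at chromosome 2, 75675513 to 75704663, minus strand. The knockout interval was 471 bp wide (75703413 to 75703883, listed 2 times) and lay 780 to 1250 bp after the start. The control interval was 635 bp wide (75703522 to 75704156, listed once) and lay 507 to 1141 bp after it. The overlap was 48.7% of the union, so the 2 intervals were shifted against each other as well as different in width. A second knockout interval of 294 bp (75694989 to 75695282, listed once) lay deeper in the gene, 9381 to 9674 bp after the start, and overlapped nothing in the control.

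Keap1 (chromosome 9, 21229730 to 21239332, minus strand), the sensor that presents NRF2 to the CUL3 ubiquitin ligase, showed the same placement just after the start. Its knockout interval was 498 bp wide (21238684 to 21239181) and began 151 bp after the start, and its control interval was 609 bp wide (21238550 to 21239158) and began 174 bp after it. Each was listed once, and the overlap was 75.2% of their union. The control list had 1 further interval of 593 bp (21220496 to 21221088, listed 2 times), 8642 bp beyond the gene and nearer to Pde4a than to Keap1. It was the one control interval of the family outside the body of its family gene.

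Bach1, a haem-sensitive repressor gene, had the closest match between genotypes. The gene lies at chromosome 16, 87698954 to 87733346, plus strand. The intervals were 595 bp wide in the knockout (87698689 to 87699283) and 596 bp in the control (87698669 to 87699264), each listed 2 times. Their edges differed by 20 and 19 bp, the overlap was 93.7% of their union, and both covered the start. No other interval lay in the window of Bach1 in either list.

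Bach2, a repressor best known from B and T lymphocytes, is the longest of the genes (347697 bp; chromosome 4, 32238413 to 32586109, plus strand) and had 4 intervals in each list, of which 2 in each were shared. At the annotated 5' end the knockout interval was 378 bp wide (32238487 to 32238864, listed once) and the control interval 555 bp (32238235 to 32238789, listed 2 times). A second shared site lay 9758 to 10341 bp into the gene, 518 bp wide in the knockout (32248237 to 32248754) and 417 bp in the control (32248171 to 32248587). The remaining intervals were narrow, 221 and 280 bp in the knockout and 218 and 237 bp in the control, each listed once and each at a different place. The RefSeq start of the promoter table lies far inside the gene at 32417435, and no interval of either list covered it. Counted per 10 kb of window, Bach2 had 0.109 intervals in each list, the lowest value in the knockout list among the 8 genes, against medians over all coding genes of 0.146 in the knockout and 0.0545 in the control.

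**Figure D2:**
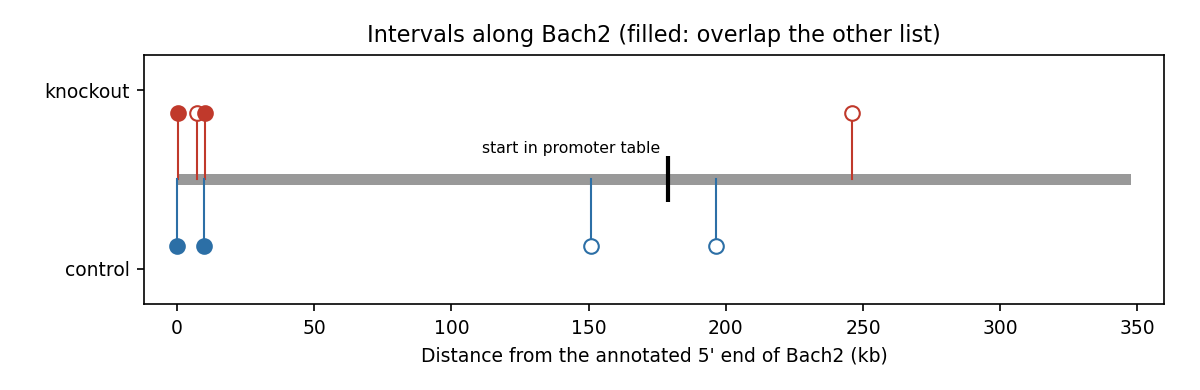
Intervals along Bach2, with distance from the annotated 5' end in kb on the x axis, knockout above and control below the grey gene body. Filled points overlap an interval of the other list; the 2 filled points of each list lie in the first part of the gene, and the open points (221 and 280 bp wide in red, 218 and 237 bp in blue) are each at a different place.

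The 8 overlapping pairs did not lean towards wider intervals in the knockout. The knockout interval was the wider in 2 pairs (Mafk and the inner Bach2 site) and the control interval in 6, by only 1 bp at Bach1 and 14 bp at the 5' end of Nfe2l1. The log2 ratio of knockout to control width ran from -0.69 to 0.68 with a median of -0.15. Over all 6296 sites of the lists where 1 interval met 1 interval, the knockout interval was the wider at 3309 and the control interval at 2968. The median log2 ratio over these sites was 0.03 with quartiles of -0.29 and 0.38. At 3 of the sites, the inner one of Nfe2l1 (-0.69), the 5' end of Bach2 (-0.55) and Nfe2l2 (-0.43), the ratio lay below the lower quartile, and at Mafk (0.68) above the upper one. Keap1 (-0.29) stood at the lower quartile. The overlap made up 48.1% to 93.7% of the union in the members, with a median of 62.2%, and 70.4% at the median over all such sites.

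**Figure D3:**
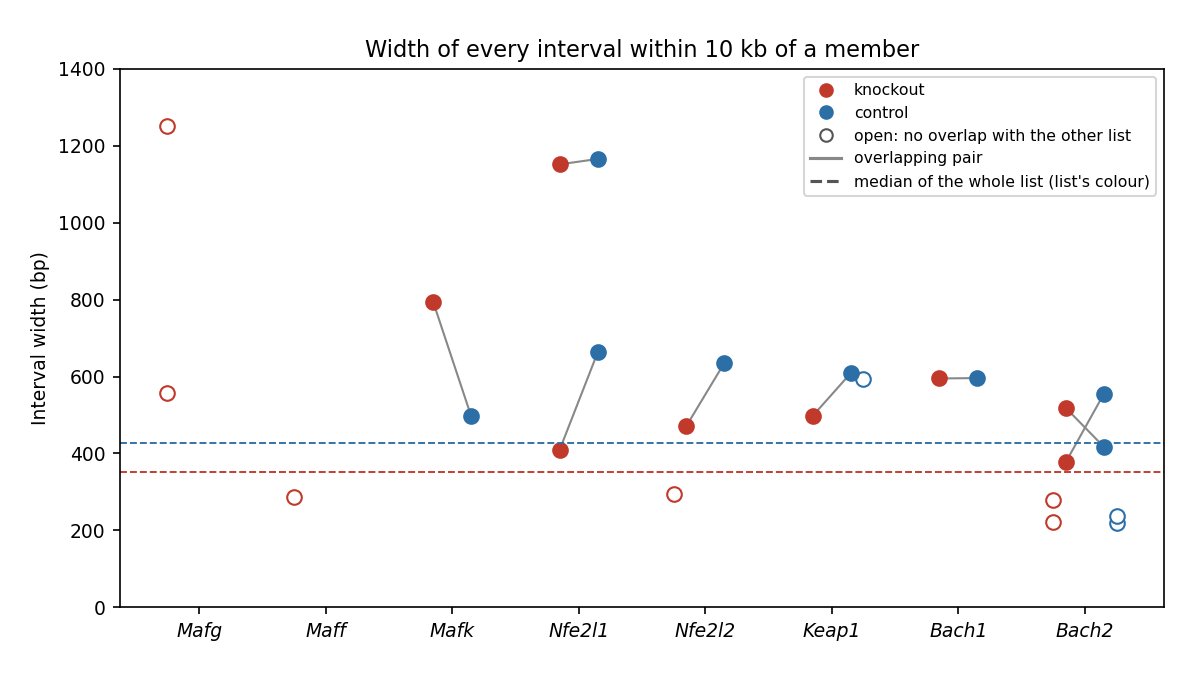
Width in bp (y axis) of every interval within 10 kb of each gene, knockout in red and control in blue. Filled points joined by a line are overlapping pairs, open points overlap nothing in the other list, and dashed lines are the medians of the whole lists (352 bp and 427 bp); the unshared Mafg interval (1252 bp) is the widest point and the shared points of Nfe2l1 at its 5' end (1152 and 1166 bp) come next.

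Unshared intervals in the family were narrow apart from those near Mafg and the one beyond Keap1. In the knockout the 6 unshared intervals ranged from 221 to 1252 bp, and 2 of them, both at or near Mafg, were listed at least 2 times. In the control the 3 unshared intervals ranged from 218 to 593 bp. Shared intervals ranged from 378 to 1152 bp in the knockout and from 417 to 1166 bp in the control. In the whole lists the median was 288 bp for unshared and 695 bp for shared knockout intervals, and 326 and 658 bp in the control.

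The promoter table gave 14 windows for the 8 genes, each running from 250 bases before to 50 after a RefSeq start. By these windows Mafk, Nfe2l1 and Bach1 (3 genes) were met by both lists, Mafg and Maff (2 genes) by the knockout list only, 0 genes by the control list only, and Nfe2l2, Keap1 and Bach2 (3 genes) by neither. Mafg led to the choice of the family, and apart from it only Maff was met by the knockout list only. Of 17491 coding genes with a window, 28.3% were met by both lists, 8.67% by the knockout list only, 3.51% by the control list only and 59.6% by neither. The Mafg window lay whole, all 300 bases, in the knockout interval, and 279 bases of the second Maff window did. At Mafk all 300 bases were in the knockout interval and 213 in the control interval.

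Windows met by an interval were rich in G and C and in CpG, and the members followed this in part. Over all windows met in both lists the median GC content was 64.0% and the median CpG ratio (CpG observed over that expected from the base content) 0.856. The medians were 61.3% and 0.766 for windows met in the knockout alone and 49.3% and 0.256 for those met in neither. Mafg had 69.7% and 1.07, Mafk 68.3% and 0.991, and Bach1 69.7% and 0.943. In Maff the window met in the knockout had 61.3% and 0.752, and the windows at its other starts had 50.3% and 0.263 and 59.7% and 0.526. The Bach2 window inside the gene had 50.3% and 0.376, and Keap1 had 53.3% and 0.61. Nfe2l2 had 68.7% and 0.544 and was met by no interval. The 5 windows of Nfe2l1, all met by both lists, had GC contents of 60.3% to 67.7% and CpG ratios of 0.677 and 0.85 at the 5' end and 0.387 to 0.529 at the inner starts, all below the median of 0.856.

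The antioxidant response element core TGACNNNGC matched 1 window each of Mafg, Maff, Mafk and Nfe2l2, and 12.4% of 32817 windows genome-wide. In Mafg it was GCACGGTCA, read on the opposite strand and starting 222 bases before the start, inside the knockout interval. In Mafk it was GCGGTGTCA, starting 13 bases before the start and inside both intervals. In Nfe2l2 it was TGACTCCGC, starting 240 bases before the start and outside the intervals of both lists, and in Maff it lay in the first window, TGACTCTGC, which no interval met. The Maf recognition core TGCTGAC (4.67% of windows) matched 1 place inside Nfe2l1, which 3 of its overlapping windows share and which both intervals cover. The AP-1 core TGANTCA (7.81% of windows) matched none of the 14. Of windows met by both lists, 15.7% held TGACNNNGC, 2.96% TGCTGAC and 3.27% TGANTCA. These shares were 15.5%, 3.49% and 4.27% for the knockout list only and 14.4%, 5.49% and 6.37% for the control list only. For windows met by neither list they were 11.2%, 5.2% and 9.38%. All are per window, whereas Maff has 3 windows and Nfe2l1 has 5, so they give no test of these matches.

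The added motifs were chosen after sequences of these genes had been read, so their presence here supports nothing. Each of the 3 small Maf genes had a CACGTG in 1 window, and the other 5 genes had none. It lay 41 bases before the start in Mafg, 191 before the second start in Maff and 208 before the start in Mafk, each time inside the knockout interval. In Mafk the site lay outside the narrower control interval. Over all windows 7.15% held CACGTG, with 12.1% of those met by both lists, 10.4% of those met by the knockout list only, 11.5% of those met by the control list only and 5.39% of those met by neither. Mafg and Maff also held TGACGTC, 22 and 29 bases before the start, in Maff as part of the palindrome TGACGTCA, which matches on both strands with overlap. Over all windows 3.21% held TGACGTC, with 7.63% of those met by both lists, 6.01% of those met by the knockout list only, 4.5% of those met by the control list only and 1.74% of those met by neither. The shares over all windows are per window, whereas Maff has 3 windows, and they give no test of these matches. A match is a description of letters and not evidence that a factor binds.

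Genes that process or degrade these factors had gene-end intervals in both genotypes in most cases. Their shares in both lists were 90.9% for NRF1 processing and 68.8% for NRF2 and BACH degradation, where all coding genes had 28.6% in both, 9.81% in only the knockout list and 57.0% in neither. Being in both lists does not need overlap, and the intervals of Syvn1 (530 bp in the knockout, 230 bp in the control), Hcfc1 (814 and 565 bp) and Fbxo22 (276 and 253 bp) did not overlap between lists. For NRF1 processing 10 of 11 genes were in both lists, among them Vcp, the segregase that extracts NRF1 from the membrane (1255 bp in the knockout, 878 bp in the control), and Usp15 (966 and 769 bp). Fbxw7 (930 and 1029 bp) and Mbtps1 (843 and 949 bp) were wider in the control. The protease gene Ddi1 had none, while its relative Ddi2, which cleaves NRF1, was in both (721 and 583 bp). For NRF2 and BACH degradation 11 of 16 genes were in both, 3 in neither, and 1 in each list by itself. Ordered by the wider of their 2 intervals, the first in both lists were Cul1 (1602 and 1225 bp), Fbxw11 (833 and 1258 bp), Gsk3b (1121 and 1225 bp) and Rbx1 (1140 and 1221 bp), parts of the ligases and the kinase that mark NRF2. Pgam5, a mitochondrial phosphatase that binds KEAP1, was that gene for the knockout (692 bp, listed 3 times), and Skp1 for the control (174 bp, listed once), although both lists met the promoter window of Skp1.

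Targets of the antioxidant response stood near the genome-wide shares. Of 42 genes, 11 (26.2%, against 28.6% of all coding genes) were in both lists and 24 (57.1% against 57.0%) in neither. The knockout list alone held 6 (14.3% against 9.81%) and the control list alone 1 (2.38% against 4.66%). The widest in the knockout alone were Me1, malic enzyme (1118 bp, listed 3 times), Nqo1, a quinone reductase and standard NRF2 target (658 bp, listed 2 times), the glutathione transferase gene Gstm1 (560 bp) and the biliverdin reductase gene Blvrb (377 bp, at an end shared with Sptbn4). Mgst1 was in the control alone (150 bp). Some genes without a gene-end interval had one at an inner start: the promoter windows of Gpx4 and Fth1 were met by both lists and that of Txnrd1 by the knockout list. In both lists, ordered by the wider of the 2 intervals, the first were Sod2 (984 bp in the knockout, 1419 bp in the control), Txnrd3 (956 and 1122 bp), Pgd (493 and 1120 bp, the narrowest knockout interval of the 11) and Gclm (1062 and 1057 bp). Sod2 and Txnrd3 encode a superoxide dismutase and a thioredoxin reductase abundant in testis, and Gclm a subunit of the enzyme that begins glutathione synthesis. Among other Maf and cap'n'collar genes Mafa had gene-end intervals of 1074 bp (knockout) and 622 bp (control), while Nrl, Nfe2 and Nfe2l3 had none.

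**Figure D4:**
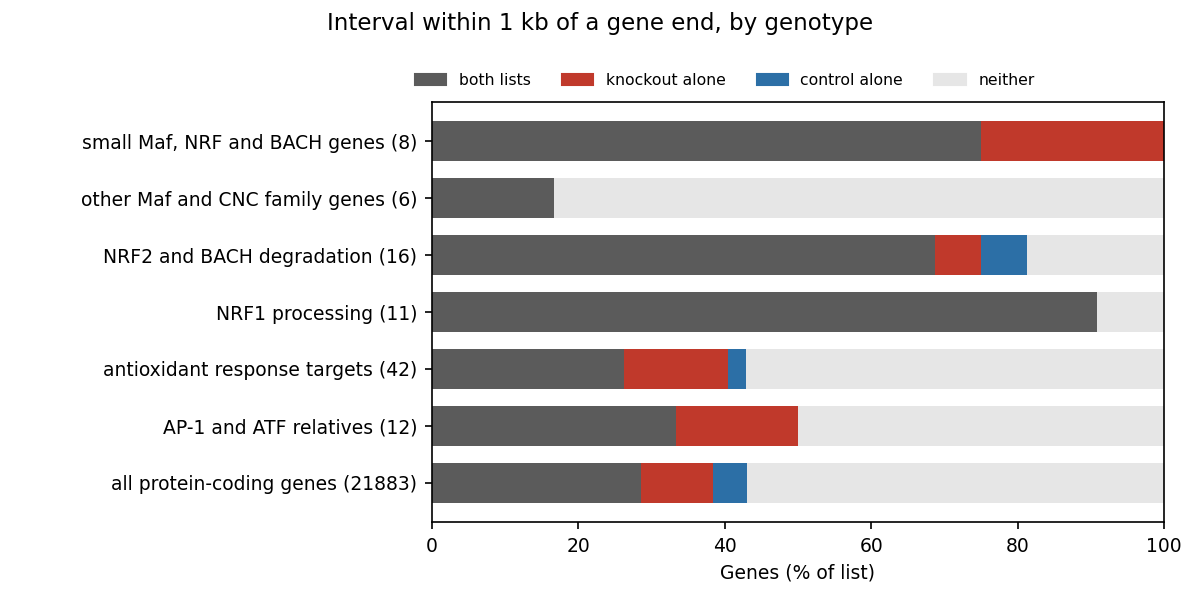
Percent of each gene list (x axis) with an interval within 1 kb of a gene end in both lists, 1 list by itself or neither, with the number of genes in brackets. The 8 family genes are all in both or in the knockout alone, the NRF1 processing genes are mostly in both (90.9%), and the antioxidant targets (26.2% in both) lie near all coding genes (28.6%).

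At the 10 kb limit the intervals nearest to it on the inside were the control interval beyond Keap1 (8.64 kb from the gene) and the knockout interval beyond Mafg (6.98 kb). Just outside were 2 knockout intervals near Mafg, 242 bp wide at 12.1 kb and 472 bp wide at 12.6 kb. A wider limit would therefore have added further knockout intervals to the Mafg window before any control interval. Apart from the 2 intervals inside the limit named here, all those counted for the family touched the body of their family gene, a count without a computed background.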

How the data were processed

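Analysed here are 2 peak lists deposited by the authors, belonging to replicate 1 of either genotype; the other 2 libraries were not analysed here. Per the labels' protocols, isolated nuclei were treated with Tn5 and each sample was sequenced to above 30000000 reads. Per the submitters' processing notes, the build was mm10 and cutadapt 2.5, Bowtie2 2.3.4.3, Picard 2.20.7 and MACS2 2.2.4 were used. The sources used here state neither their settings, nor whether reads were moved to the Tn5 cutting site, nor whether replicates were pooled, all of which set where interval edges fall. Each list has 3 columns (chromosome, start, end). Repeated lines (29656 and 24167 lines in all) were counted once.

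Positions are 1-based. Intervals overlapping by at least 1 bp were called shared. Genes and the 250 bases before to 50 after each start came from RefSeq GRCm38.p6 tables. All 8 members matched both tables, and 87 genes matched the 88 names of the 5 pathway lists (1 name was a synonym of another). Analysis used Python 3.11.15, numpy 2.4.6, pandas 2.3.3, scipy 1.17.1 and matplotlib 3.10.9, and was tested on simulated intervals. The CACGTG and TGACGTC motifs and the promoter window counts were added after the data were seen. The members and lists were chosen with earlier results of these data known. All 8 members were named, and from each list up to 4 genes with the widest interval in 1 list alone and up to 4 in both, by the wider of the 2 intervals; Syvn1, Hcfc1, Fbxo22, Ddi1, Ddi2, Mgst1, Gpx4, Fth1, Txnrd1, the Maf and AP-1 genes without an interval and the markers were named after their values were seen. One result of a pathway list is not reported here.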

Additional observations from a re-analysis of the deposited data

How the results depend on the processing

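Of 87 values recomputed under other settings, 77 stayed within 1.5 times the reported count or inside the interval of the reported share, and 10 did not. With intervals listed at least 2 times, the windows held 6 knockout and 5 control intervals. By gene ends 2 genes were then in both lists and 1 in the control alone (0 reported). The pathway genes numbered 23 in both (37 reported) and 6 in the control alone (2 reported). Those in the knockout alone numbered 7 (9 reported), inside the bounds. The shared percentages then fell to 33.3% (57.1% reported) and 40.0% (72.7% reported), inside the wide intervals of the reported shares but by over 1.5 times. With intervals of at least 300 bp, 1 gene was in the knockout alone by gene ends and 1 by promoter windows, and 1 pathway gene was in the control alone. With gene ends of 500 bp, 0 genes were in the knockout alone, and Mafg then had no gene-end interval and so no value. In these cases fewer intervals or a shorter reach entered the count by construction. The control-alone counts rose with intervals listed at least 2 times. Under that limit a gene in both lists becomes control alone when only its knockout interval drops out, as at Bach2. Elsewhere the Mafg interval stayed at 1252 bp and unshared. Equal numbers of the widest intervals, merging within 200 bp, windows of 5 kb and 1 kb, only intervals nearest to a member, an overlap of 50% of both intervals, a gap of 500 bp and gene ends of 3 kb moved none of the values they were run on past these bounds. The promoter window alternatives were added after the data were seen. No paired analysis was possible because there is 1 peak list per genotype. The sources used here do not state how many reads made each list, so a missing interval does not show a closed site.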

Other observations

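AP-1 and ATF relatives, which bind elements similar to those of the Maf pairs, had a gene-end interval in both lists at 4 of 12 genes and in the knockout alone at 2, with the other 6 in neither. The first 2 of these are 33.3% and 16.7% of the list, near the 28.6% and 9.81% of all coding genes, of which 57.0% were in neither. Atf4, an activator of the amino acid stress response, was in both (1073 bp in the knockout, 852 bp in the control), as was Jund (754 and 657 bp). Fosl1 was the narrower in the knockout, 390 bp against 968 bp in the control. Jun had an interval of 696 bp and Junb one of 340 bp in the knockout alone, each listed once. Cebpb had one in each list, 455 and 239 bp, that did not overlap each other. Fos, Fosb, Fosl2, Atf3, Batf and Batf3 had none.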
